A study of Drosophila melanogaster with 90 samples.

Results

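The 71 genes described here encode mitochondrial ribosomal proteins and were taken as every row of the gene count table whose FlyBase symbol begins with mRpL or mRpS and a number. They were 71 of 9027 genes in the table, 46 with an mRpL symbol (named for the large subunit) and 25 with an mRpS symbol (named for the small subunit). Of 73 such symbols in the gene name table, mRpL53 and mRpS5 were not analysed here. The members lay on all the large chromosome arms, with 12 on 2L, 11 on 2R, 16 on 3L, 21 on 3R and 11 on X.

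The mitochondrial ribosome translates the few proteins encoded in mitochondrial DNA, which are core subunits of the respiratory complexes and the ATP synthase. Its ribosomal RNAs are made inside the mitochondrion, whereas its proteins are made from nuclear genes in the cytosol and imported. Some of these proteins have counterparts in the bacterial ribosome and others were added during the evolution of mitochondria. Heads contain photoreceptors, brain, fat body and muscle, of which photoreceptors, brain and muscle have a high demand for respiration.

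The study sequenced poly(A)-selected RNA from heads of Canton-S females of Drosophila melanogaster after mating. Females were virgin, or had mated with males that lack Sex Peptide (SP-null-mated), or had mated with wildtype males (wildtype-mated). Sex Peptide, which the male passes on in the ejaculate, alters egg laying, feeding and receptivity of the female. Heads were taken at 10 times from 0.5 to 24 h after mating, and virgins were frozen alongside so that time of day could be separated from mating. All flies were kept on a 12 h light and 12 h dark cycle and mating took place in a morning window, so the 12 h samples came from the late evening and the 24 h samples from the following morning. The whole series was run 3 times, as repeats A, B and C. A library was made from many heads, so the values are averages over all cell types of the head, and in such bulk RNA fewer cells of a type and less RNA per cell cannot be told apart.

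Of 90 samples 87 were analysed, in 27 groups of 3 libraries and 3 groups of 2. Repeat C was not analysed here for wildtype-mated females at 2 and 3 h and for virgins at 6 h. Library totals ran from 15411046 to 103387056 counts, with a median of 19740478, with the maximum in the 24 h wildtype-mated library of repeat A. All 71 members passed the filter on low counts, and the lowest count of any member in any library was 66. Markers of neurons, photoreceptors, glia, fat body, muscle and hemocytes were all detected, and the 6 ovary markers had no row. Of the 30 groups, the 24 h wildtype-mated libraries were the most spread, with a median SD of 0.132 log2 CPM over the members and 0.158 over all genes.

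Members were expressed at similar levels. Per kilobase of exon the median was 17.6 CPM (counts relative to the TMM-scaled library total), and 68 of the 71 members lay within 2-fold of it. By symbol the median was 17.5 for mRpL and 18.1 for mRpS members. The exceptions were mRpL28 at 60.3, mRpS9 at 50.8 and mRpL21 at 6.74 CPM per kb. Next in order were mRpL24 at 32.9 and mRpL30 at 32.6 CPM per kb at the upper end, and mRpS18B at 9.72, mRpS23 at 10.7 and mRpL11 at 11.2 at the lower end. Over all 87 libraries mRpL28 ranged from 49.1 to 68.2 CPM per kb and mRpS9 from 43.7 to 56.9, so these highest members overlapped each other. The range of mRpL21, from 5.54 to 8.36 CPM per kb, overlapped with neither. The ratio of the highest to the lowest mean was 8.95. Exon length here is the union of all annotated exons of a gene, which was 1696 bases for mRpL21. Before division by length mRpL21 had a mean of 11.4 CPM, and the median over the members was 13.6.

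The mean level of the members changed over the day, and time accounted for most of its variation. The mean log2 CPM of the 71 members was lowest at 2, 3 or 4 h and highest at 12 h in each treatment. In virgins it was 3.75 ± 0.017 at 2 h and 4.025 ± 0.009 at 12 h (SD, n = 3), and the libraries at 12 h, from 4.02 to 4.03, lay above each of the other 26 virgin libraries, of which the highest was 3.99. In SP-null-mated females the 12 h libraries ran from 3.96 to 4.00, and 1 of the other 27 reached above the lowest of them. In wildtype-mated females they ran from 3.97 to 4.16, and 1 of the other 25 lay above the lowest of them. Time point accounted for 0.625 of the sum of squares of this mean over the 87 libraries, repeat for 0.028 and treatment for 0.004. These shares are descriptions with no test.

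**Figure D1:**
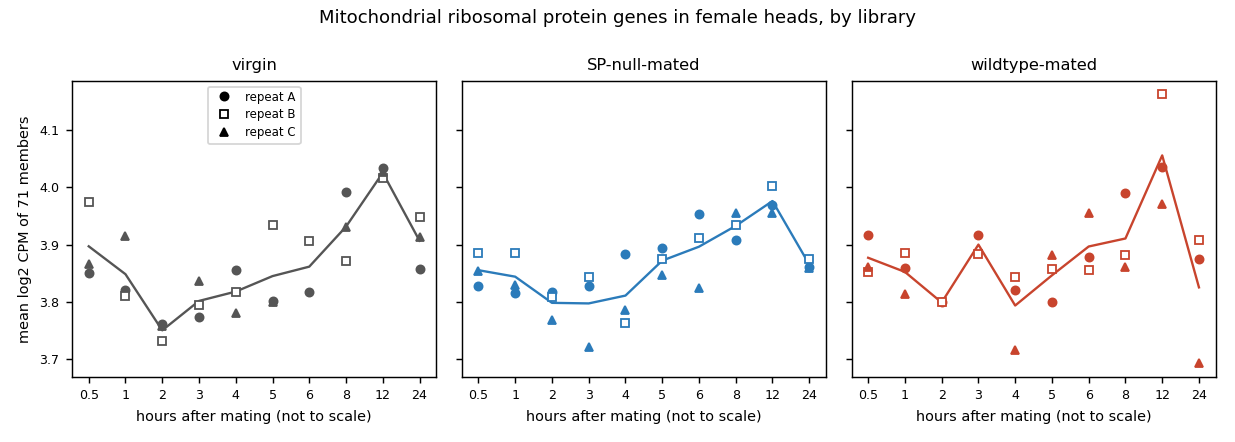
Mean log2 CPM of the 71 members (y axis) in each of 87 libraries against hours after mating (x axis, time points evenly spaced), in 3 panels for the 3 treatments. Points are libraries (circle repeat A, open square B, triangle C) and the line joins the means; the 12 h libraries are the highest of their treatment except for 1 other library in each mated panel, and the lowest point of all is the 24 h wildtype-mated library of repeat C, at 3.69.

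Single members followed the mean to differing degrees, and some did not follow it. In virgins 44 of 71 members (62%) had their highest group mean at 12 h, as did 17.9% of all genes. The share was 50.7% of members in SP-null-mated females, where it was 19.4% of all genes, and 78.9% in wildtype-mated females, where it was 17%. The lowest group mean in virgins was at 2 h for 34 members. The group means of a member correlated with the mean of the other 70 members over the 30 groups with a median Pearson r of 0.68, and 59 members exceeded 0.5. The closest followers were mRpL10 (r = 0.911), a protein at the base of the stalk that binds translation factors, mRpL49 (0.876) and mRpS18B (0.868). At the other end were mRpS9 (-0.280), mRpS28 (0.25), mRpL46 (0.27), mRpL42 (0.292) and mRpL33 (0.32). The 30 points share libraries and scaling between genes, so these coefficients describe and carry no test.

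**Figure D2:**
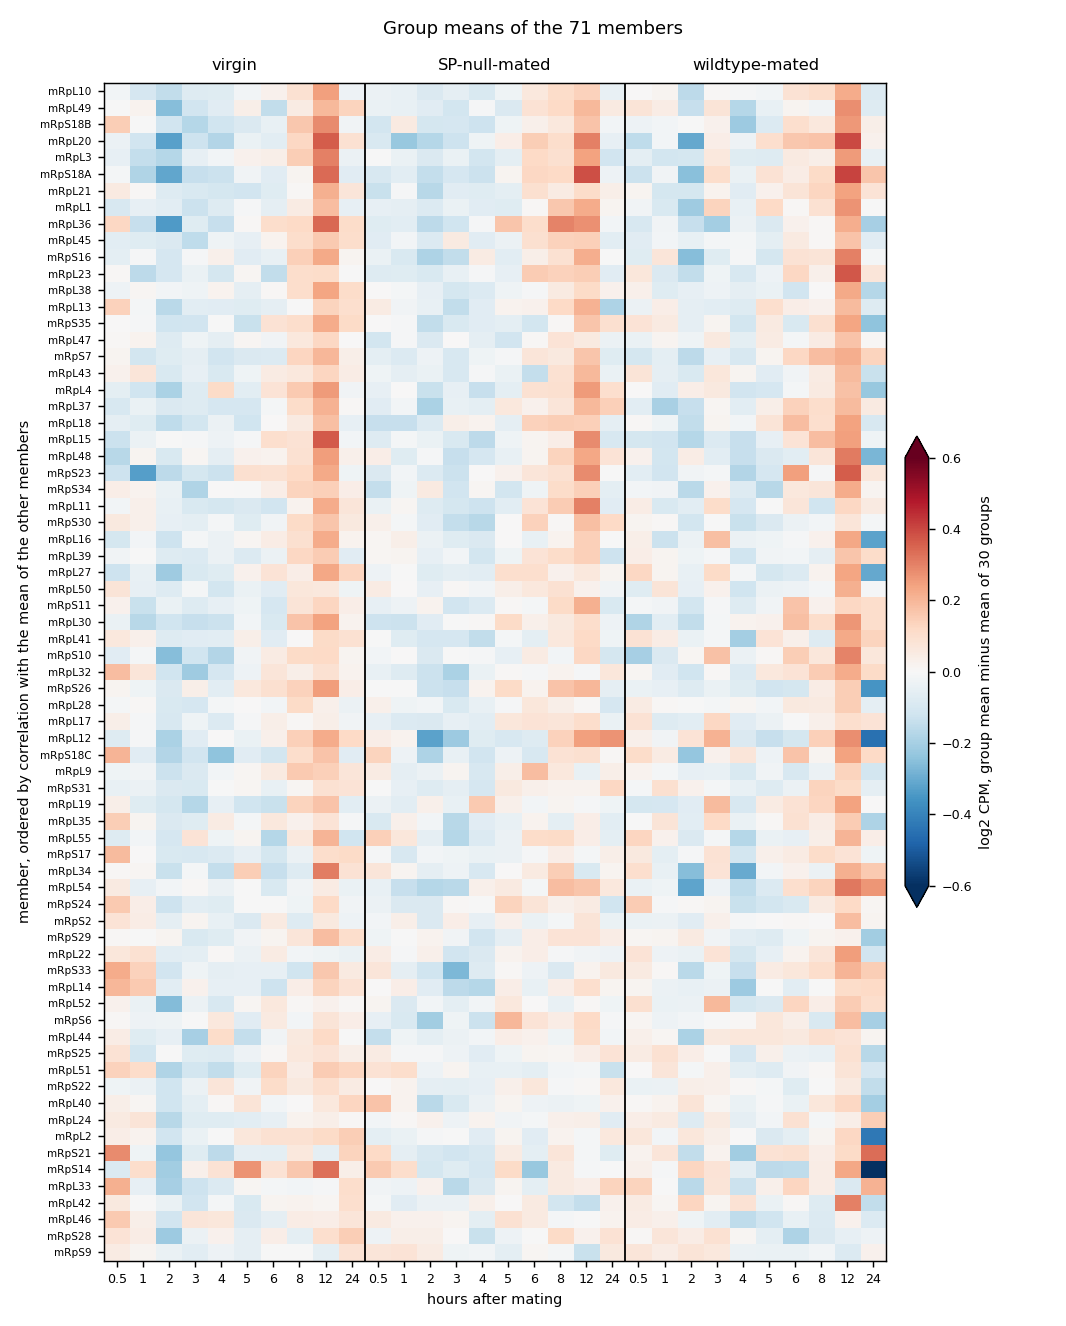
Each row is a member and each column a group (3 treatments by 10 time points, in hours after mating); colour is the group mean of log2 CPM minus the member's mean over 30 groups, from blue (lower) to red (higher), with values beyond 0.6 shown at the end of the scale. Rows run from the member most correlated with the others (mRpL10) to the least (mRpS9); the 12 h columns are red in most rows, and mRpS14 at 24 h in wildtype-mated females is the darkest blue.

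The F test over all time points called 30 of 71 members in virgins, where 29% of all genes were called at an adjusted p under 0.05. It called 23 in SP-null-mated females, against 36.5% of all genes, and 41 in wildtype-mated females, against 52.6%. As shares these were 42.3%, 32.4% and 57.7% of the members, so the shares lay near those of all genes in both mated treatments. In all 3 treatments 13 members were called, namely mRpL1, mRpL3, mRpL15, mRpL20, mRpL23, mRpL30, mRpL37, mRpL39, mRpL49, mRpS18A, mRpS18C, mRpS23 and mRpS26. No treatment called 20 members. The shares of all genes called in all 3 treatments or in none were not counted. With 1 repeat left out the member counts fell to between 6 and 18 in virgins, 7 and 10 in SP-null-mated and 12 and 26 in wildtype-mated females. Of all genes 1033 to 1715, 1650 to 2207 and 2419 to 3123 were called in these fits. With all repeats the totals were 2617, 3298 and 4748.

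At 12 h the direction was mostly upward. Against the first hour (the mean of 0.5 and 1 h), 25 members were higher at 12 h in virgins and 0 lower, while 12.7% of all genes were called higher and 12.3% lower (25% in all). In SP-null-mated females 26 were higher and 1 lower, with 16.1% of all genes higher and 13.3% lower (29.4% in all). In wildtype-mated females 34 were higher and 1 lower, with 20.4% of all genes higher and 14.7% lower (35.1% in all). The median log2 fold change of the members was 0.16, 0.13 and 0.19 in these 3 treatments, and that of all genes was 0.01, 0.01 and 0.00. The changes were small, and the largest single value, 0.49 on the log2 scale, corresponded to a rise of 40.2%. The 3 comparisons share no library: 17 members were higher in all 3, as were 6.66% of all genes, and 43 were higher in at least 1, as were 28.8% of all genes.

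Counts at 12 h depended on the repeats. Without repeat A, B or C the number of members higher was 12, 15 and 19 in virgins, 9, 12 and 19 in SP-null-mated and 23, 12 and 29 in wildtype-mated females. Calls over all genes, higher or lower, fell as well. They went from 2259 to 1554, 1413 and 1629 in virgins and from 2649 to 1682, 1611 and 1855 in SP-null-mated females. In wildtype-mated females they went from 3170 to 2286, 1947 and 2657. Without repeat B of wildtype-mated females at 12 h alone, which held the highest member mean of all libraries, 16 members were called in that treatment. Of all genes 2371 were called there, higher or lower. Called in each of these fits with 1 repeat left out were 8 members in virgins, 4 in SP-null-mated and 11 in wildtype-mated females. mRpL15, mRpL20 and mRpS18A were among them in every treatment. The share of all genes called in each of these fits was not counted.

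**Figure D3:**
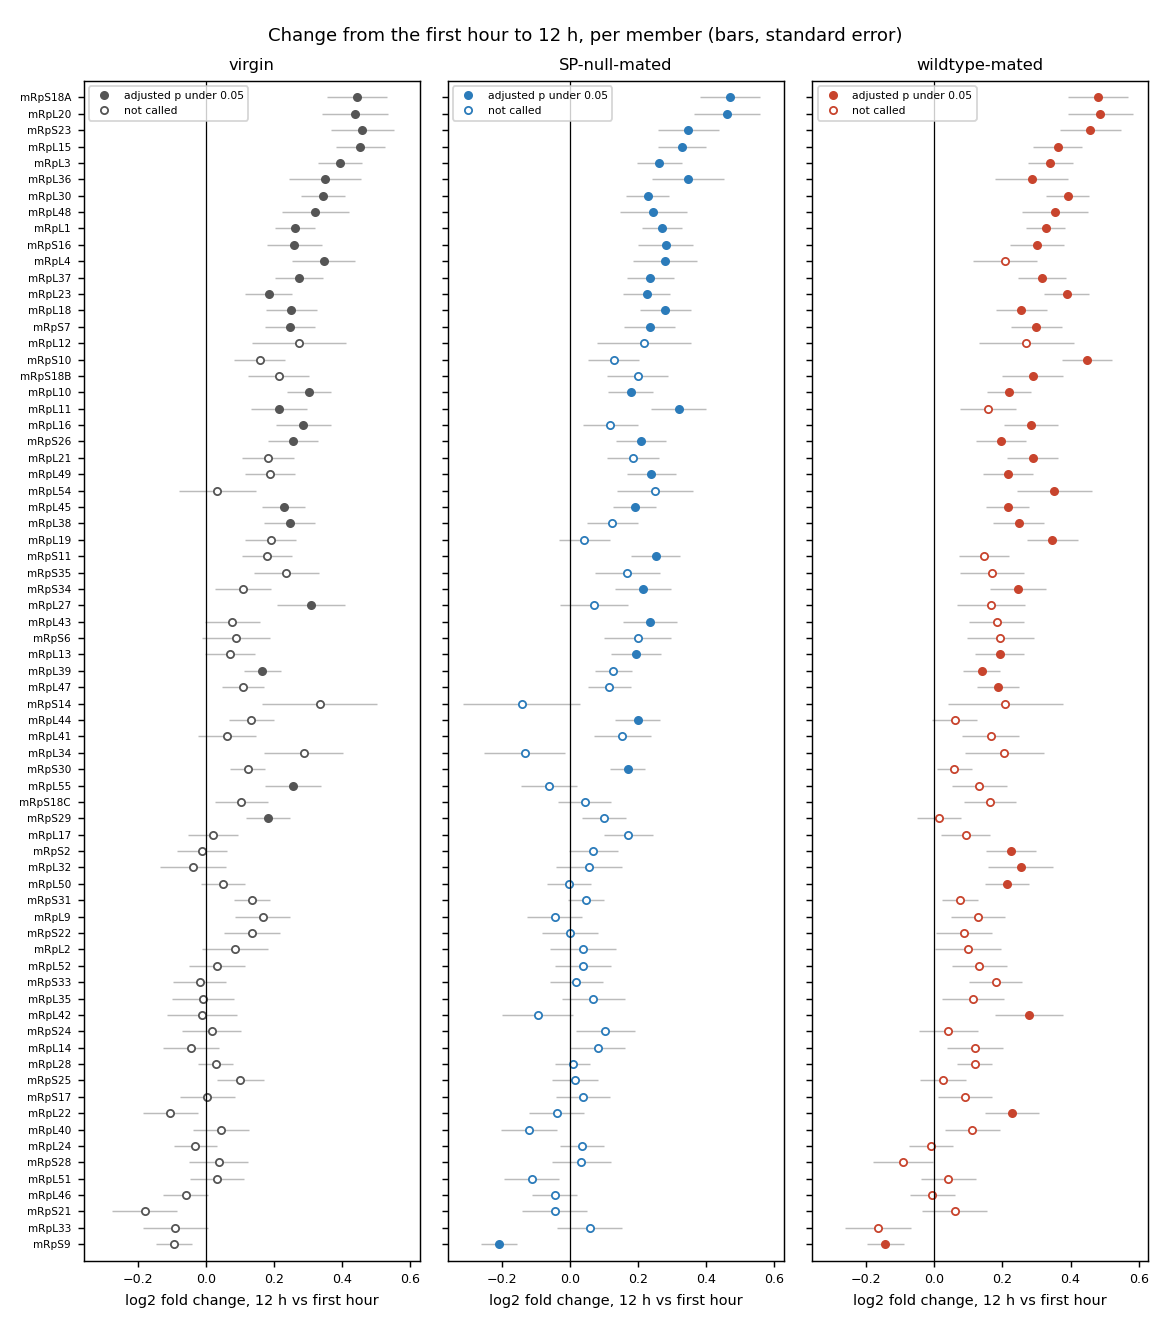
Log2 fold change of each of the 71 members at 12 h against the first hour (x axis) in virgin, SP-null-mated and wildtype-mated females (3 panels); points are estimates, bars their standard errors, and filled points have an adjusted p under 0.05. Members are ordered by the mean of the 3 values, from mRpS18A at the top to mRpS9 at the bottom, and filled points lie to the right of 0 except for mRpS9 in both mated panels.

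mRpS18A encodes one of several fly paralogues of a bacterial small subunit protein, and its human counterpart is found in the large subunit. It lies on chromosome 3R at 8561917 to 8562593 (minus strand, BDGP6.54 annotation) and its exons overlap no other gene. In virgins its lowest, median and highest CPM in the 6 libraries of the first hour were 7.07, 7.86 and 8.50, and repeats A, B and C at 12 h had 10.3, 11.9 and 9.71. In SP-null-mated females the first-hour values were 7.48, 7.89 and 8.45 and the 12 h values 10.9, 10.8 and 11.2. In wildtype-mated females they were 6.13, 8.15 and 9.33 against 11.3, 12.0 and 10.1. Every 12 h library was above every first-hour library in all 3 treatments. The log2 fold changes were 0.44 ± 0.089, 0.47 ± 0.087 and 0.48 ± 0.087 (SE), with adjusted p of 7.71e-05, 2.22e-05 and 1.01e-05.

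mRpL15, a conserved protein of the large subunit core, behaved in the same way. It lies on 3L at 20435110 to 20436209, and 47 bases of its exons overlap Psn on the other strand. Its first-hour CPM in virgins had a lowest, median and highest value of 10.3, 12.0 and 13.4, against 16.5, 16.7 and 15.4 in repeats A, B and C at 12 h. In SP-null-mated females these were 11.3, 12.1 and 13.2 against 15.6, 15.97 and 14.2, and in wildtype-mated females 10.7, 11.6 and 12.4 against 13.9, 16.5 and 14.3. Again the groups did not overlap in any treatment. The log2 fold changes were 0.45 ± 0.072, 0.33 ± 0.071 and 0.36 ± 0.072 (SE; adjusted p 9.45e-07, 0.00024 and 4.31e-05).

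mRpL20, whose bacterial counterpart acts early in large subunit assembly, rose by 0.44 ± 0.096, 0.46 ± 0.096 and 0.49 ± 0.095 (log2, SE; adjusted p 0.000306, 0.000132 and 3.51e-05). Its 12 h libraries ran from 12.2 to 16.1 CPM over the 3 treatments, and the first-hour libraries from 8.47 to 11.6. mRpS23, a small subunit protein with no bacterial counterpart, rose by 0.46 ± 0.092 in virgins, 0.35 ± 0.090 in SP-null-mated and 0.46 ± 0.090 in wildtype-mated females (log2, SE; adjusted p 7.83e-05, 0.00195 and 3.62e-05). Its groups did not overlap in virgins or wildtype-mated females, but in SP-null-mated females the highest first-hour library, at 8.38 CPM, was above repeats A and B at 12 h. mRpL36, a very short zinc-binding protein in bacteria, rose by 0.35, 0.35 and 0.29 (log2; adjusted p 0.0101, 0.00946 and 0.0302), and its call in virgins and in SP-null-mated females was lost without repeat A or without repeat B, with adjusted p of up to 0.102, although the rise was about as large (0.32 and 0.34 in virgins, 0.32 and 0.31 in SP-null-mated females).

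Wide ranges over time were also found for mRpL11 in SP-null-mated females and for mRpL48 and mRpL54 in wildtype-mated females. Their rises at 12 h were 0.32, 0.35 and 0.35 (log2; adjusted p 0.00153, 0.00275 and 0.00867). These calls were each lost under at least 1 alternative, with adjusted p of up to 0.065, 0.11 and 0.327. mRpS21 had a wide range in virgins but was not called at 12 h there (-0.18, log2; adjusted p 0.175).

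Other members higher in all 3 treatments were mRpL1, of the mobile stalk beside the exit site of transfer RNA, mRpL3 of the large subunit core, mRpL10, mRpL18, mRpL23 at the mouth of the exit tunnel, mRpL30, mRpL37, mRpL45, mRpL48, mRpS7, mRpS16 and mRpS26. Their log2 fold changes in virgins ran from 0.18 for mRpL23 to 0.39 for mRpL3. In 11 members every 12 h library was above every first-hour library in all 3 treatments. By treatment this held for 25 members in virgins, 22 in SP-null-mated and 29 in wildtype-mated females, and for 11.5%, 16.9% and 18.2% of all genes. The share of all genes for which it held in all 3 treatments together was not counted.

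Calls were found among members of both symbols. Among mRpL members 19, 18 and 25 of 46 were higher at 12 h in virgin, SP-null-mated and wildtype-mated females, and among mRpS members 6, 8 and 9 of 25. This tally goes by symbol and so counts mRpS18A, called in all 3 treatments, with the small subunit. Members classed as having a bacterial counterpart were higher in 16, 16 and 22 of 43 cases. Members classed as particular to mitochondria were higher in 9, 10 and 12 of 28. This division went by the number in the symbol, apart from mRpL47 and mRpS24, so single members could be misplaced. It was made after the values were known. No test of these differences was made. The members higher in all 3 treatments were 9 of the 42 whose exons overlap another gene and 8 of the 29 whose exons do not.

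Some members were also higher at 12 h than at 24 h. Against 24 h, 11 members were higher at 12 h and 0 lower in virgins, where 20.2% of all genes were called, 10.6% higher and 9.6% lower. In SP-null-mated females 14 were higher and 1 lower (18.5% of all genes called, 9.52% higher and 9% lower), and in wildtype-mated females 36 were higher and 1 lower (35% called, 17.9% higher and 17% lower). mRpL1, mRpL3 and mRpL15 were above both the first hour and 24 h in all 3 treatments, as were 2.44% of all genes. At 24 h against the first hour 0 members were called in virgins (4 at an unadjusted p under 0.05) or in SP-null-mated females (6), where 4.65% and 7.88% of all genes were.

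No member's rise was called different between treatments. Comparing the change from the first hour to 12 h between treatments, 0 members were called in each of the 3 pairs by edgeR, with 7, 2 and 7 members at an unadjusted p under 0.05 for virgin against wildtype-mated, virgin against SP-null-mated and the 2 mated treatments against each other. Of all genes 6.94%, 0.0111% and 4.79% were called. mRpS18A, for example, had log2 changes of 0.44, 0.47 and 0.48 with standard errors near 0.09. These tests do not show that the rises were equal.

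mRpS9 went the other way. Its bacterial counterpart has a tail that reaches the transfer RNA in the decoding site, and per kilobase it was the highest small subunit member. In virgins the lowest, median and highest first-hour CPM were 61.6, 67.3 and 73.6, and the 12 h libraries had 61.4, 64.7 and 63. In SP-null-mated females they were 64.6, 69.1 and 73.2 against 60, 63.4 and 56.5. In wildtype-mated females they were 65.5, 68.8 and 70.4 against 62.8, 63.2 and 59.9. The 12 h libraries were below all first-hour libraries in both mated treatments and overlapped them in virgins, while 15.5%, 13.2% and 11.3% of all genes had every 12 h library below in SP-null-mated, wildtype-mated and virgin females. The log2 fold changes were -0.093 ± 0.053, -0.21 ± 0.053 and -0.14 ± 0.053 (SE; adjusted p 0.208, 0.00183 and 0.0299). mRpS9 lies on 3R at 7889277 to 7902667, and 325 bases of its exons overlap ArgRS-m, a mitochondrial arginyl-tRNA synthetase gene on the other strand. ArgRS-m was higher at 12 h by 0.25 ± 0.061 in SP-null-mated and 0.27 ± 0.061 in wildtype-mated females (log2, SE; adjusted p 0.000934 and 0.000328). The strand setting of the counting is not given in the sources used here, and the part of the overlap in the mRpS9 values was not tested.

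Of the other members least like the rest, 3 were not called at 12 h in any treatment. mRpL46 had log2 values of -0.059, -0.045 and -0.006 in the 3 treatments, and mRpL33 -0.089, 0.059 and -0.16, with adjusted p of at least 0.186. mRpS28 had 0.038, 0.034 and -0.091, likewise not called. mRpL42, a protein found in mitochondrial but not bacterial ribosomes, was higher at 12 h in wildtype-mated females (0.28 ± 0.0999, log2, SE; adjusted p 0.0245) and had -0.012 and -0.095 in virgin and SP-null-mated females, which were not called. Its CPM at 12 h was 10.4, 10.03 and 10.7 in virgins, 10.8, 9.45 and 7.92 in SP-null-mated and 13.5, 13.4 and 11.4 in wildtype-mated females, so the wildtype-mated libraries lay above all others. Wildtype-mated exceeded SP-null-mated females by 0.43 ± 0.12 (log2, SE; adjusted p 0.0103), but mRpL42 was not called in the test over all times, and the difference between the treatments' rises was not called either. Of the members only mRpL46 and mRpS9 had a negative estimate in all 3 treatments, and 50 had a positive one in all 3.

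**Figure D4:**
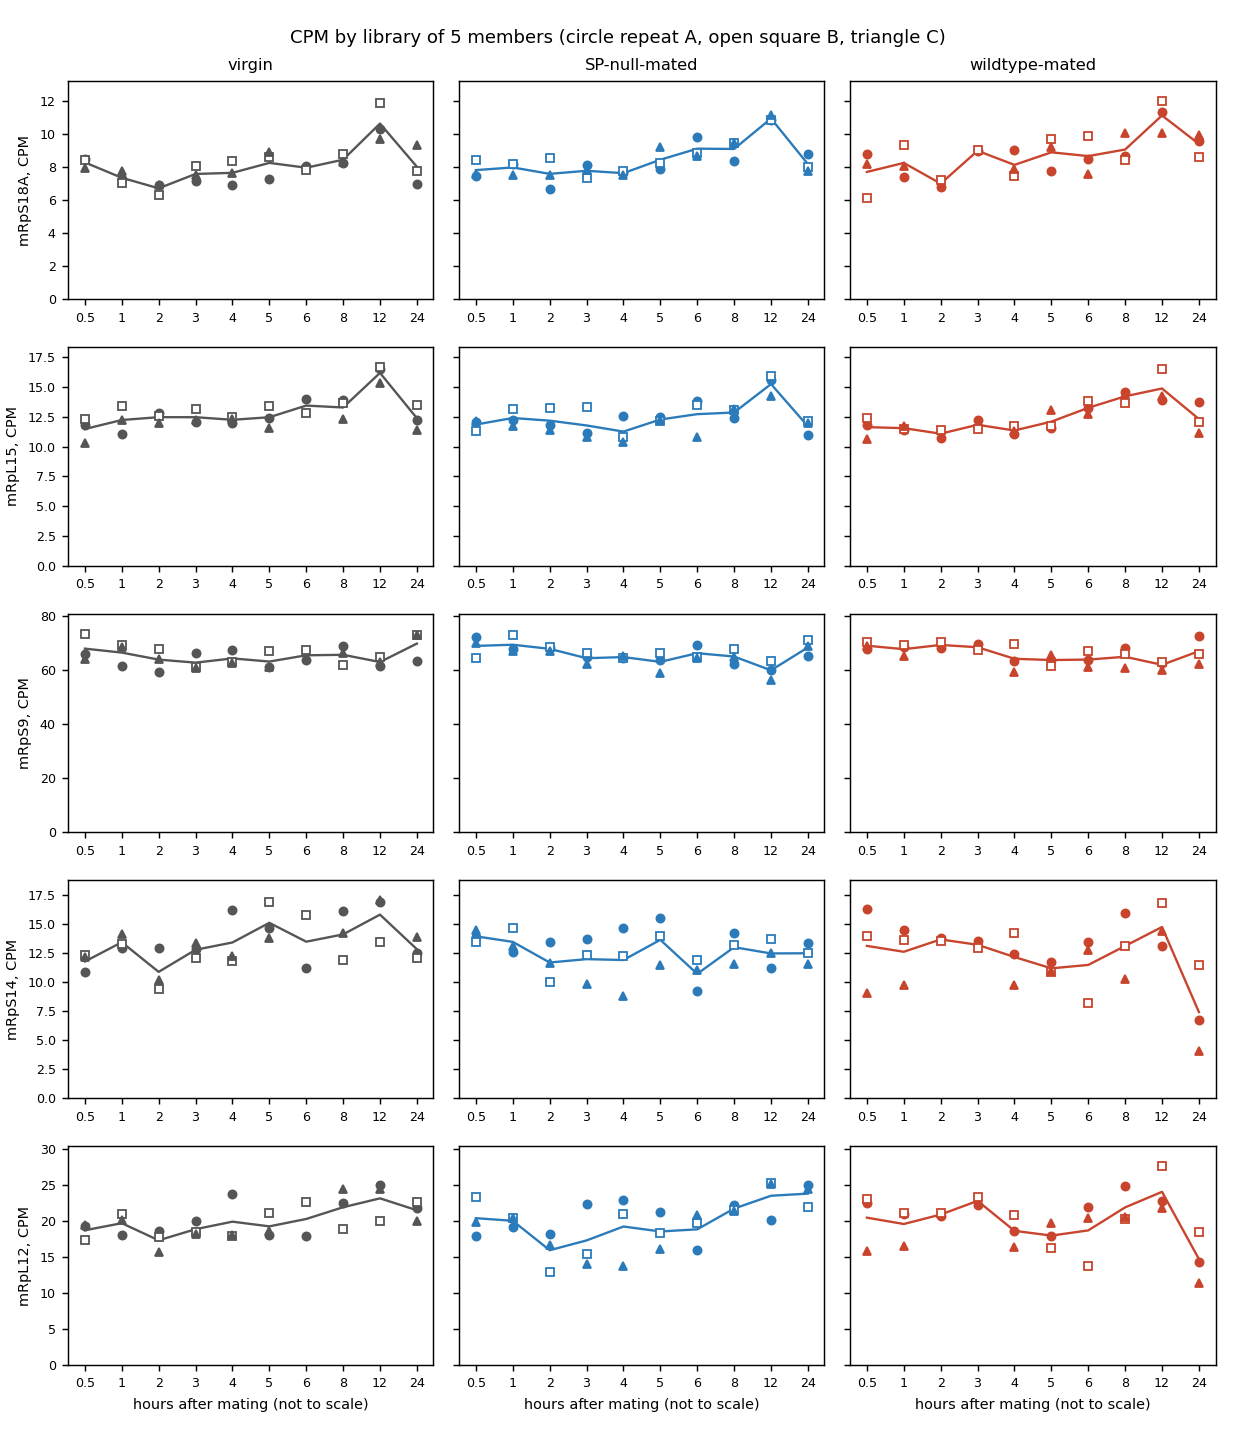
CPM (y axis, from 0) of mRpS18A, mRpL15, mRpS9, mRpS14 and mRpL12 (rows) in each library against hours after mating (x axis, evenly spaced) in the 3 treatments (columns); points are libraries by repeat and lines join the group means. mRpS18A and mRpL15 are highest at 12 h, mRpS9 dips at 12 h in the mated panels, and mRpS14 and mRpL12 are lowest at 24 h in wildtype-mated females.

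Other genes of mitochondrial translation and RNA processing were called higher at 12 h in part, to be read against the 12.7%, 16.1% and 20.4% of all genes called higher in virgin, SP-null-mated and wildtype-mated females. Of 8 listed translation factors 5, 2 and 5 were higher in virgin, SP-null-mated and wildtype-mated females and 0 lower. The elongation factor mEFG1 was higher in each treatment, by 0.56 ± 0.070, 0.68 ± 0.069 and 0.62 ± 0.070 (log2, SE; adjusted p 2.53e-09, 3.96e-12 and 8.57e-11), and so was the initiation factor mIF2, by 0.33, 0.33 and 0.25. Of 15 mitochondrial aminoacyl-tRNA synthetases, which charge the transfer RNAs, 8, 10 and 11 were higher and 0 lower, among them TrpRS-m, by 0.50 ± 0.056, 0.53 ± 0.056 and 0.39 ± 0.056 (log2, SE; adjusted p 1.26e-10, 1.21e-11 and 5.59e-08). Of 14 genes of mitochondrial transcription and RNA processing 5, 3 and 5 were higher and 1 lower in each. The 2 of 8 factors and the 3 of 14 genes in SP-null-mated females lay near the share of all genes. RNaseZ, which trims the ends of transfer RNAs, was higher by 0.97 ± 0.082, 1.16 ± 0.081 and 1.123 ± 0.081, and the lower gene was ClpX, a subunit of a matrix protease, by -0.34, -0.40 and -0.41 (log2). The genes tko and bonsai, mitochondrial ribosomal proteins under other symbols, gave 1, 1 and 2 calls of 2, all higher.

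Few genes of cytosolic translation and of respiration were called higher. Of 85 cytosolic ribosomal protein genes 0, 0 and 1 were higher at 12 h and 8, 10 and 0 lower, with median log2 changes of -0.17, -0.23 and -0.06. Of 64 nuclear genes for subunits of oxidative phosphorylation 0 were higher in any treatment and 4, 7 and 6 lower, with medians of -0.05, -0.14 and -0.09. No mitochondrially encoded gene had a row. The genes outside the 71 whose 30 group means were most correlated with the member mean were the prohibitins Phb2 (r = 0.908) and Phb1 (0.907), which form a ring-shaped scaffold in the inner mitochondrial membrane, then CG30109 (0.859), CG8531 (0.859) and CG4962 (0.858). Among the 30 genes most correlated with the member mean, 7 were members, which made up 71 of the 9024 genes compared. Each member is part of the mean it was compared with, and the other genes are not.

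Some cell type markers moved at 12 h as well. Of 4 muscle markers 2, 3 and 4 were lower in virgin, SP-null-mated and wildtype-mated females. Their summed CPM in virgins was 4510 to 5232 in the first hour and 3500 to 4338 at 12 h, with 4728 to 5663 against 3543 to 4031 in SP-null-mated and 4412 to 5198 against 3598 to 4235 in wildtype-mated females. Of 6 fat body markers 2, 2 and 0 were lower, of 4 neuron markers 0, 0 and 2, of 4 photoreceptor markers 0, 1 and 1, and of 4 hemocyte markers 1 in each. No glial marker was called, and no marker was at 0. Their part in the rise of the members was not tested.

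The response to mating touched few members. Over all time points 8 of 71 (11.3%) differed between wildtype-mated and virgin females, where 28.6% of all genes did. These were mRpS18C (adjusted p 0.0129), mRpS26 (0.0142), mRpL2 (0.0276), mRpS10 (0.0294), mRpL19 (0.0353), mRpS14 (0.0393), mRpL30 (0.0494) and mRpL23 (0.0498). Between the 2 mated treatments, which differ in the receipt of Sex Peptide, 3 members differed against 18.5% of all genes, namely mRpL12 (0.0329), mRpL19 (0.0392) and mRpS31 (0.0495). Between SP-null-mated and virgin females 0 members differed by edgeR, against 7.06% of all genes, with 6 at an unadjusted p under 0.05 and 0 called by DESeq2. With the repeat as a block 1 was called, mRpL19 (adjusted p 0.046). Without 1 repeat, 0 to 2 members were called for wildtype-mated against virgin females and 0 or 1 for wildtype-mated against SP-null-mated females. Calls over all genes fell as well, from 2585 to between 1166 and 1238 and from 1671 to between 677 and 769.

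**Figure D5:**
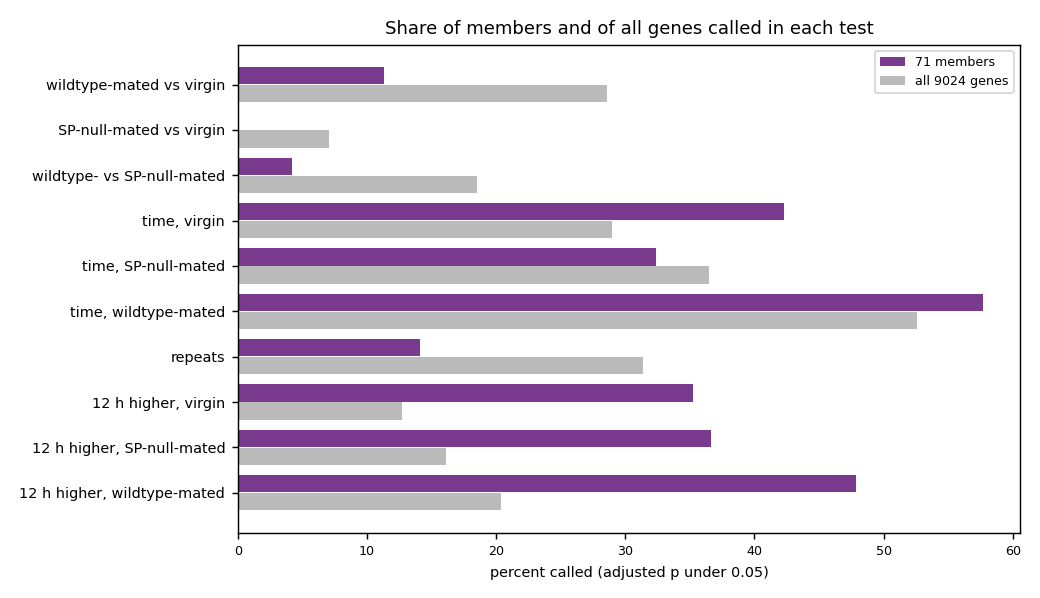
Percent of the 71 members (purple) and of all genes tested (grey) with an adjusted p under 0.05 (x axis) in the tests of treatment pairs, time and repeats, and, in the bottom 3 rows, percent higher at 12 h than in the first hour. The purple bar is shorter than the grey bar in the treatment and repeat rows and longer in the 12 h rows.

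By time point, wildtype-mated and virgin females differed in 2 members at 3 h (4.51% of all genes), 1 at 12 h (6.32%), 13 at 24 h (29.2%) and 0 at the other 7 times. At 0.5, 1 and 2 h 0.266%, 0.532% and 1.48% of all genes were called, and at 4, 5, 6 and 8 h 0.355%, 2.67%, 1.05% and 3.67%. The members at 3 h and 12 h were higher, as were 3.95% and 4.18% of all genes, with 0.565% and 2.14% lower. Wildtype-mated and SP-null-mated females differed in 3 members at 12 h (9.82% of all genes), 13 at 24 h (28.3%) and 0 at the other 8 times, where 0.754%, 3.31% and 5.87% of all genes were called at 5, 6 and 8 h and 0 earlier. The 3 members at 12 h were higher, as were 6.49% of all genes, with 3.32% lower. SP-null-mated and virgin females differed in 0 members at each time by edgeR, with 0 to 9 at an unadjusted p under 0.05 and 0 to 4.55% of all genes called (0.676%, 0.521%, 4.55%, 2.98% and 2.19% from 0.5 to 4 h, then 0.0111%, 0, 0.0111%, 0 and 0.0554%). At 24 h, the time with the most calls, 1 member was higher and 12 lower in wildtype-mated than in virgin females, where 14.6% of all genes moved each way. Against SP-null-mated females 3 were higher and 10 lower, with 14.4% and 13.9% of all genes. The median over the members was -0.03 and 0.04 on the log2 scale, and 0.02 over all genes in both, so the members did not move as a body.

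mRpS14, a protein of the head of the small subunit, had the widest range of the members, 1.19 log2 units between its highest and lowest group means. At 24 h its CPM in repeats A, B and C was 6.72, 11.4 and 4.09 in wildtype-mated females and 12.5, 12.1 and 13.8 in virgins, with 11.6 to 13.4 in SP-null-mated females. All 3 wildtype-mated libraries were below the others, repeat B only just. The difference from virgins was -0.82 ± 0.20 (log2, SE; adjusted p 0.00175), and -0.57 (adjusted p 0.0628) without the 24 h library of repeat C in that treatment. mRpS14 lies on X at 19479382 to 19480238, and its exons overlap Naa15-16 by 255 bases on the other strand and CG32533 by 30 bases on its own strand. The part of these overlaps in the mRpS14 values was not tested.

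mRpL12 forms the stalk that recruits translation factors, and its exons (3L, 8956791 to 8957584) overlap no other gene. Its CPM at 24 h was 14.2, 18.4 and 11.4 in wildtype-mated females, 25.0, 21.9 and 24.5 in SP-null-mated females and 21.7, 22.7 and 20.02 in virgins. Wildtype-mated females were below the rest without overlap. The difference from SP-null-mated females was -0.71 ± 0.16 (log2, SE; adjusted p 0.000831), -0.57 (adjusted p 0.0245) without the 24 h library of repeat C in that treatment, and -0.56 (adjusted p 0.0539) without repeat C as a whole. That from virgins was -0.56 ± 0.16 (log2, SE; adjusted p 0.0071). The call against virgins was lost without the 24 h wildtype-mated library of repeat C, and without repeat A or repeat C as a whole. It was also lost in a fit of the 24 h libraries alone. At 12 h the same groups overlapped, at 21.8 to 27.6, 20.1 to 25.2 and 19.9 to 25.1 CPM.

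mRpL2, from the heart of the peptidyl transferase region, had 17.9, 21.6 and 10.8 CPM in wildtype-mated females at 24 h and 22.9 to 24.9 in virgins (-0.52 ± 0.11, log2, SE; adjusted p 0.000389). Without repeat C of that group the difference was -0.30 (adjusted p 0.0406). mRpS26, a small subunit protein particular to mitochondria, had 14.04, 15.1 and 10.1 against 16.6 to 17.2 CPM (-0.37 ± 0.085, log2, SE; adjusted p 0.000905), and -0.23 (adjusted p 0.0664) without that library. In both genes the wildtype-mated libraries were below all virgin libraries and repeat C was the lowest. The other lower members, mRpL16, mRpL27, mRpL38, mRpL40, mRpL48, mRpS25, mRpS29 and mRpS35, differed from virgins by -0.21 to -0.38. None of these calls held without the 24 h wildtype-mated library of repeat C, or in a fit of the 24 h libraries alone.

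The count at 24 h changed with the libraries included. Without the 24 h wildtype-mated library of repeat C, 3 members differed from virgins and 2 from SP-null-mated females. Of all genes 850 and 1063 were then called, against 2638 and 2550 with all libraries. Without the 24 h wildtype-mated library of repeat A, 18 and 11 members were called, and 2334 and 2078 of all genes. A fit of the 24 h libraries alone kept both of these libraries and had fewer libraries to estimate the spread. It called 0 and 2 members, and 360 and 498 of all genes. In it the differences from virgins were about as large, at -0.83 for mRpS14, -0.54 for mRpL2 and -0.39 for mRpS26 (log2). In the fit of all libraries, 51 of 85 cytosolic ribosomal protein genes were lower in wildtype-mated than in virgin females at 24 h. So were 44 of 64 genes of oxidative phosphorylation. The medians were -0.40 and -0.34 on the log2 scale, and 0 were higher in either set. Of the muscle markers 3 of 4 were lower, at a summed 2263 to 3514 CPM against 3697 to 4919 in virgins, and of the fat body markers 3 of 6 were higher, at 157600 to 183500 against 70910 to 124500 CPM. The part of these markers in the members' values was not tested. Against the first hour, 17 members were called in wildtype-mated females at 24 h, where 39.7% of all genes were, 7 higher and 10 lower (21.9% and 17.8% of all genes). With RLE size factors the split was 5 and 12.

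A few members were higher in wildtype-mated females. mRpL39, related to a transfer RNA synthetase, had 27.7, 26.97 and 25.8 CPM at 24 h against 22.7, 23.9 and 24.6 in virgins and 23.02, 23.6 and 21.7 in SP-null-mated females, so the groups did not overlap. The differences were 0.18 ± 0.062 and 0.24 ± 0.063 (log2, SE; adjusted p 0.025 and 0.0033). The call against virgins was lost without repeat A, without repeat B and without the 24 h wildtype-mated library of repeat A. That against SP-null-mated females was lost without repeat C. Both were lost in a fit of the 24 h libraries alone. Neither mRpL39 nor mRpS21 was called in the tests of treatment pairs over all times. mRpS21 was above SP-null-mated females at 24 h, at 13.6 to 16.8 against 10.9 to 11.7 CPM (0.41 ± 0.11, log2, SE; adjusted p 0.00337), and 228 bases of its exons overlap CG8870 on the other strand. Its lowest wildtype-mated library at 24 h, at 13.55 CPM, was below the highest virgin library, at 13.62. The call against SP-null-mated females was lost without the 24 h wildtype-mated library of repeat C and without repeat C as a whole. mRpL23 was above virgins at 12 h, at 16.9, 19.3 and 16.2 against 14.3, 14.4 and 14.8 CPM (0.27 ± 0.077, log2, SE; adjusted p 0.022). Without repeat B of wildtype-mated females at 12 h it was 0.19 (adjusted p 0.266).

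mRpL19, a large subunit protein at the contact between the subunits in bacteria, was above virgins at 3 h. Its CPM was 16.6 and 14.4 in the 2 wildtype-mated libraries, 11.5, 11.5 and 13.1 in virgins and 13.4, 14.9 and 11.3 in SP-null-mated females. The wildtype-mated libraries were above all virgin libraries but not above all SP-null-mated ones. The difference from virgins was 0.36 ± 0.098 (log2, SE; adjusted p 0.0156), and 0.23 (adjusted p 0.865) without repeat A and 0.43 (adjusted p 0.109) without repeat B. At 12 h mRpL19 was higher than in the first hour in wildtype-mated females, as its group mean rose from 12.6 at 0.5 h to 16.02 CPM (0.35 ± 0.074, log2, SE; adjusted p 0.000147). It was not called in virgins (0.19 ± 0.075; adjusted p 0.0513) or SP-null-mated females (0.043 ± 0.075; adjusted p 0.71).

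Differences between treatments that changed with time were called in 0 members for wildtype-mated against virgin females (14.2% of all genes, 13 members at an unadjusted p under 0.05, and 2 called with the repeat as a block, mRpL2 and mRpL19). For SP-null-mated against virgin females 0 members were called (5.62% of all genes, 7 at an unadjusted p under 0.05). For the 2 mated treatments against each other 2 were called, mRpL12 (adjusted p 0.0331) and mRpL19 (adjusted p 0.0453), where 11.8% of all genes were.

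The 3 repeats differed in 10 of 71 members (14.1%), where 31.4% of all genes were called. The members were mRpL13, mRpL15, mRpL19, mRpL20, mRpL49, mRpS7, mRpS9, mRpS14, mRpS22 and mRpS28. In the comparisons of single repeats, repeat C was lower than repeat A by 0.18 ± 0.062 in mRpS14 and by 0.11 ± 0.025 in mRpL19, and lower than repeat B by 0.12 ± 0.030 in mRpS28 and by 0.11 ± 0.028 in mRpS22 (log2, SE; adjusted p 0.0199, 0.000491, 0.0074 and 0.00744). These differences were smaller than the rise of the leading members at 12 h, but of similar size to the median change of the members. That median was 0.16, 0.13 and 0.19 (log2, 12 h against the first hour) in virgin, SP-null-mated and wildtype-mated females. The mean of all members deviated from the group means by 0.004, 0.014 and -0.02 log2 CPM in repeats A, B and C.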

How the data were processed

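The authors deposited raw counts of reads per gene, as whole numbers with 1 column per library, and raw counts per exon bin. Per the submitters' processing notes, Trimmomatic 0.39, STAR 2.7.5a, HTSeq 0.11.2 and edgeR were used with dm6 and BDGP6; the sources used here give neither parameters nor the strand setting. Per the labels' protocols the libraries were stranded and poly(A)-selected. The exon table held bins of 4 members only and was not used.

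Gene counts were tested in R 4.3.3 with edgeR 4.0.16. Of 9027 genes filterByExpr (minimum count 10, minimum total 15) kept 9024. TMM scaling and 1 robust quasi-likelihood fit with a mean per group covered 87 libraries. Contrasts and F tests were adjusted by Benjamini-Hochberg over all genes, and an adjusted p under 0.05 is called. Log2 CPM has a prior count of 2. Libraries held between 15411046 and 103387056 counts. Overlaps, lengths and coordinates are from the BDGP6.54 annotation.

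The series design says that the time course was run 3 times, so repeat letters pair libraries. Deviations from group means correlated between same-letter libraries from -0.229 to 0.335 (median 0.078), with 36 of 84 pairs above 0.1. Alternatives were RLE size factors, no filter, DESeq2 1.42.0, a replicate block, left-out repeats, a fit without wildtype-mated females at 24 h, and a 24 h fit. Added after seeing the data were leaving out single wildtype-mated libraries and 24 h as reference. Members, lists and naming rules were chosen with earlier results of these data known. Named were the members with the largest differences (6 per direction), ranges (6) and repeat differences (4) among those called, the 5 least and 3 most correlated with the others, and the 4 highest and lowest levels. mRpL39, mRpS21 and mRpL42 in treatment comparisons, members named only in lists, and the genes of other pathways were named after their values were seen.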

Additional observations from a re-analysis of the deposited data

Results flagged for a closer look

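In mRpL12 the difference between the mated treatments (wildtype-mated minus SP-null-mated) changed with time (adjusted p 0.0331 in edgeR's test of the interaction): it was 0.39 ± 0.18 at 2 h, 0.04 ± 0.16 at 12 h and -0.71 ± 0.16 at 24 h (log2, SE). In mRpL19 it changed as well (adjusted p 0.0453), from -0.26 ± 0.088 at 4 h to 0.25 ± 0.086 at 12 h (log2, SE), with adjusted p of 1.00 and 0.0552 at these single times. Neither test passed when any 1 of the 3 repeats was left out, where 0 members were called in each case, and with the repeat as a block 3 members were called.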

How the results depend on the processing

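RLE size factors and no filter on low counts kept all 12 counts of members called within 1.5 times of the reported value. With a replicate block, SP-null-mated against virgin females gave 1 member called in place of 0, and the other 10 counts that could be had stayed within 1.5 times. DESeq2 gave 5 in place of 8 for wildtype-mated against virgin females and stayed within 1.5 times for the other 6 tests. Without wildtype-mated females at 24 h, the counts were 3 in place of 8 and 1 in place of 3 for wildtype-mated against virgin and SP-null-mated females. Without 1 repeat, these were 0 to 2 and 0 to 1, and the counts over time were 6 to 18 in virgins, 7 to 10 in SP-null-mated and 12 to 26 in wildtype-mated females. Between repeats they were 0 to 6. At 12 h against the first hour they were 12 to 19, 10 to 19 and 12 to 29, and 16 for wildtype-mated females without their repeat B at 12 h. At 24 h, counts against virgins and SP-null-mated females were 0 and 2 in a separate fit, 3 and 2 without repeat C of that group, and 1 to 13 and 1 to 17 without 1 repeat. Calls over all genes fell too in every fit without 1 repeat and in the separate 24 h fit. These fits also held fewer libraries, and the cause of the changed counts was not tested. No result changed direction past the threshold. The exon-bin alternative was not run, since 4 of 71 members had bins. The lowest member count was 66, so counting error adds to the spread of the least expressed members.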
